A study of Homo sapiens with 115 samples.

Results

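Small cells budded off from irradiated giant HCT116 cells were compared according to how strongly they expressed mitotic genes. HCT116 is a human colorectal cancer line with intact p53, and the cells described here are its p53+/+ budded progenies, labelled stage [S]. They were collected on Day 10 after a single dose of 8 Gy. These labels were carried by 21 single cells, against 94 other cells in the series, and 19 of the 21 had at least 10000 genes with a count and were kept. A score was computed for each kept cell as the mean log2(CPM + 1), with CPM the count scaled to the total of the cell, of 8 mitotic genes, namely MKI67, TOP2A, CCNB1, CDK1, BUB1, TPX2, KIF11 and AURKA. The 9 cells above the median score were called cycling and the 10 cells at or below it non-cycling, so both groups were chosen by the levels of these genes. The names are those of the rule, and no cell was followed or stained for division.

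Some other cells of the series served only for comparison, and the p53−/− cells of stages other than [S] are not described here. The cells compared were the p53−/− budded progenies of the same stage, dose and day, made from an HCT116 line that lost p53 by homologous recombination, and the p53+/+ cells of the stages [N] (Day 0), [P] (pre-budding giant cells, Day 7), [B] (budding giant cells, Day 10) and [R] (repopulated cells, Day 30). The labels give 8 Gy for [N] too, whereas the study's methods call these cells untreated. Every library holds the RNA of 1 hand-picked cell, and the labels name no culture. The progenies of a line therefore count as 1 sample, and differences between cycling and non-cycling cells are given as sizes with the spread over cells and with no test.

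In dividing cells the genes of DNA replication are switched on at the entry into S phase by E2F factors, and those of mitosis follow in G2 and M under B-MYB and FOXM1. After DNA damage, p53 raises p21, the product of CDKN1A, which keeps the DREAM repressor on both sets of promoters. Many mitotic promoters carry a cell cycle homology region (CHR) close to the start of the gene, through which DREAM and its activating counterpart bind, whereas promoters of replication genes more often carry an E2F site. In the study, giant cells that survived irradiation mostly took up no EdU, a label of DNA synthesis, although budding ones could. Their small progenies are cells that may take up the cell cycle again.

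The promoters of some genes that differed most are shown first, because both motifs can be read in them. Sequences are those of RefSeq on GRCh38.p14, 250 bases before to 50 bases after the start of the gene, and capitals mark the motif. The first 3 are the genes with the largest differences that met the size rule given below and held a CHR match (TTTGAA or TTCGAA, either strand). PLK1 encodes a kinase that drives entry into mitosis, NCAPG a subunit of condensin I, and DEPDC1B a protein of mitotic de-adhesion. They lie at chr16:23678639-23678938 (plus strand), chr4:17810729-17811028 (plus strand) and chr5:60700117-60700416 (minus strand).
PLK1: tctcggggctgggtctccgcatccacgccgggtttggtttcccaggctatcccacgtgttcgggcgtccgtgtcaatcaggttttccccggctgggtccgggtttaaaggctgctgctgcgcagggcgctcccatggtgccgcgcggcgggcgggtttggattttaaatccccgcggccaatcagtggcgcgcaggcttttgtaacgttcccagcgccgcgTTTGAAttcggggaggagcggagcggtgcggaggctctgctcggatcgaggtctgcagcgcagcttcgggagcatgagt
NCAPG: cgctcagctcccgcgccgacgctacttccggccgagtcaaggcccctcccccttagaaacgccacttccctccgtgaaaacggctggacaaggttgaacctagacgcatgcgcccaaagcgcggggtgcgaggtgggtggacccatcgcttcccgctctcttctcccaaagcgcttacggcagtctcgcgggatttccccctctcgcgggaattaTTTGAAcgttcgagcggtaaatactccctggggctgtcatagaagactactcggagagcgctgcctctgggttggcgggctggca
DEPDC1B: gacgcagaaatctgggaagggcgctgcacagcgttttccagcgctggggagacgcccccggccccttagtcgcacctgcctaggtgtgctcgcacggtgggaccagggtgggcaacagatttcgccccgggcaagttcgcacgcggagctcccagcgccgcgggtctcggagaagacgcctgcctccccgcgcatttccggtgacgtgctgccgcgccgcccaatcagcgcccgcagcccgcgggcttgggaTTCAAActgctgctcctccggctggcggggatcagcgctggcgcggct
The next pair are replication genes with an E2F match (TTTCCCGC, TTTCGCGC, TTTGCCGC or TTTGGCGC, either strand), again those with the largest differences. DTL encodes the substrate receptor of the ubiquitin ligase that destroys CDT1, and GINS2 a subunit of the replicative helicase. They lie at chr1:212035498-212035797 (plus strand) and chr16:85688905-85689204 (minus strand).
DTL: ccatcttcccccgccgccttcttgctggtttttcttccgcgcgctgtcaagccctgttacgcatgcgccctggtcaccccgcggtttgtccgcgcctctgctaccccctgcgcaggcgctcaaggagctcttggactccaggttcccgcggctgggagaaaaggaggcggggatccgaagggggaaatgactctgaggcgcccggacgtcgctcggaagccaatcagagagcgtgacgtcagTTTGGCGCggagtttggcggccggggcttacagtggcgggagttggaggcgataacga
GINS2: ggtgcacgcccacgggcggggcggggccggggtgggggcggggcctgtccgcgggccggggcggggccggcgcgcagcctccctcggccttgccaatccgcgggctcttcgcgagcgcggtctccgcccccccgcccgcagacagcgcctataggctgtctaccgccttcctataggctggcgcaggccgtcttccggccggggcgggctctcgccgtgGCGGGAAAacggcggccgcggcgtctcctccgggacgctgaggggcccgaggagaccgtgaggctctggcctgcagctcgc
The last is IFI6, an interferon-stimulated gene that was lower in cycling cells, at chr1:27672143-27672442 (minus strand), with matches to the core of the interferon-stimulated response element (ISRE, GAAANNGAA, either strand).
IFI6: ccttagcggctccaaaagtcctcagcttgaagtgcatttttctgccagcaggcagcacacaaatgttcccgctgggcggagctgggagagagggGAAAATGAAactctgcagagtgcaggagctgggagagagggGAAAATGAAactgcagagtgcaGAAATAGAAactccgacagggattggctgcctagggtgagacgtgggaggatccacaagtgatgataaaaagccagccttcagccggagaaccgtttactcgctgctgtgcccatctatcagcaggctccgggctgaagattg
Counted from 0 at the first base of the gene, the CHR match began at -29 in PLK1, at -35 in NCAPG and at 2 in DEPDC1B, where it lies on the other strand. The E2F match began at -8 in DTL and at -31 in GINS2, in GINS2 on the other strand. IFI6 held 3 ISRE matches, which began at -156, -93 and between them.

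The scores of the cycling cells were 5.89, 5.96, 6.03, 6.10, 6.62, 6.71, 6.97, 7.62 and 7.84 (mean 6.64 ± 0.73, SD, n = 9). Those of the non-cycling cells were 1.45, 1.66, 2.22, 2.29, 3.05, 3.82, 4.64, 4.77, 4.86 and 5.80 (mean 3.46 ± 1.53, SD, n = 10). Scores ran on without a clear break: the largest gap between neighbours, 0.946, lay inside the non-cycling group, between 4.86 and the cell with 5.80. That cell, 8028, defined the median, and the next one up, 1219S4 with 5.89, was the lowest of the cycling cells. Within 0.5 of the median there were 5 cells, all from 5.80 to 6.10, so the cut fell among close neighbours. Whether the 19 cells form a range or separate types was not tested. The values of the score genes, which chose the groups, show what the rule picked. MKI67 spanned 6.15 to 8.68 in cycling cells and 0.36 to 7.39 in non-cycling cells, CDK1 spanned 5.84 to 8.74 and 1.44 to 6.43, and CCNB1 spanned 6.50 to 9.55 and 2.90 to 6.64, each in the same order.

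**Figure D1:**
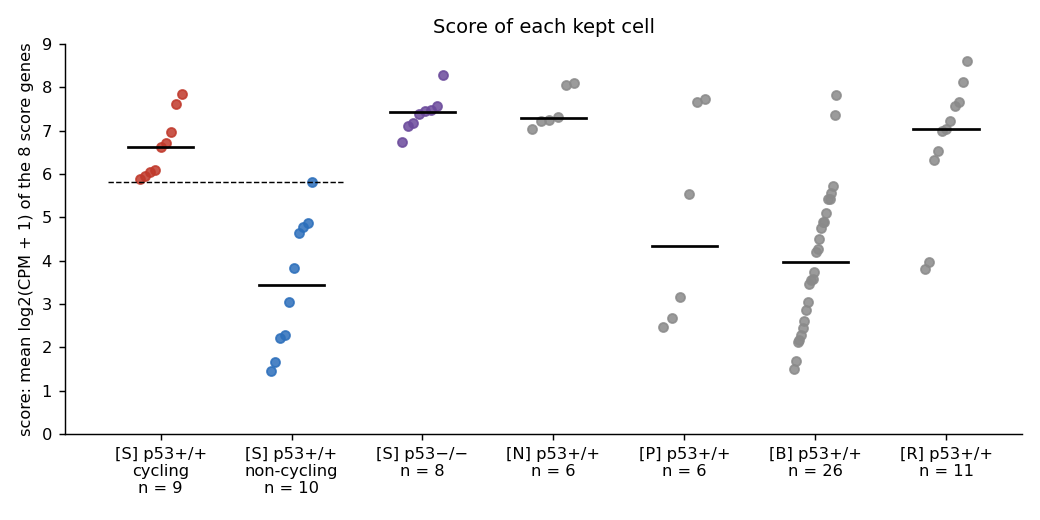
Score of each kept cell (y axis, mean log2(CPM + 1) of the 8 score genes), with a bar at the median of each group and a dashed line at the median that divided the p53+/+ [S] cells. The 9 cycling cells lie between 5.89 and 7.84, and the 10 non-cycling cells between 1.45 and 5.80, while the 8 p53−/− [S] cells lie between 6.75 and 8.28.

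Compared with other stages, the cycling progenies scored near the cells of [N] and [R], mostly below the [N] range. Kept p53+/+ [N] cells scored 7.03 to 8.09 (median 7.29, n = 6) and [R] cells 3.80 to 8.61 (median 7.03, n = 11). Of the cycling progenies, 2 scored as high as the lowest [N] cell. Budding cells [B] of the same line spread from 1.5 to 7.82 (median 3.97, n = 26). The p53−/− progenies lay higher and closer together, from 6.75 to 8.28 (median 7.42, n = 8), and 16 of the 19 p53+/+ progenies scored below the lowest of them. Low scores were thus seen among p53+/+ and not among kept p53−/− progenies, with 1 sample of each line.

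Depth and quality were spread widely in both groups. Total counts were 1.46e+07 to 6.68e+07 in cycling cells (median 3.14e+07) and 1.95e+07 to 5.92e+07 in non-cycling cells (median 3.13e+07). Cycling cells had 10268 to 15240 genes with a count (median 13128), against 11605 to 17755 in non-cycling cells (median 14042), so that fewer genes were seen in cycling cells at a like depth. Mitochondrial ribosomal RNA took 0.737% to 37.5% of counts in cycling cells and 1.20% to 14.6% in non-cycling cells. Epithelial keratins were high in every cell, with KRT19 at 10.09 or more, whereas VIL1 and CDX1, markers of colon epithelium, had no count in any kept cell. Of 14 blood, stromal and endothelial markers, 8 had a count in cycling cells and 7 in non-cycling cells, and their summed level was 0 to 9.49 CPM and 0 to 7.42 CPM in that order, with CD3E, CD14, PDGFRB and CDH5 at 0 throughout.

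The cells 80813 and 80818 stood apart from the other p53+/+ progenies, and both were non-cycling. Over 38 p53 target genes their mean levels were 3.55 and 3.75, against 4.94 to 7.36 in the other 17 kept cells. In the p53−/− progenies the level was 3.93 to 5.51. CDKN1A, at 7.36 and 7.14 in the pair, lay at the low end of the 7.18 to 11.80 of the other 17 cells. MDM2, the p53-induced ligase that degrades p53, stood at 1.58 and 2.93 in the pair, against 4.80 to 7.98 in the other 17 cells and 4.28 to 6.77 in p53−/− progenies. CD44, an adhesion receptor, stood at 5.49 and 6.15 in the pair, against 7.38 to 10.90 in the other 17 cells and 6.50 to 8.52 in p53−/− progenies. The pair thus lay below the other kept p53+/+ progenies in target level, MDM2 and CD44, and below the p53−/− progenies too, although the lowest [B] cell of the line had MDM2 at 2.00. Of 74 genes that were named by rule and met the size rule given below, 13 no longer met it without the pair, 11 of them higher and 2 lower, and of those that had not met it 2 were then higher and 8 lower. For genes described here, the loss or gain is stated beside the value. The digits that begin cell names are not explained by the labels, and 5 of the 8 such prefixes among kept cells held both cycling and non-cycling cells.

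Outside the score genes, 10406 genes had a count in at least 10 of the kept cells and a mean of at least 5 CPM. A gene met the size rule as higher when its mean and its median log2(CPM + 1) both exceeded those of non-cycling cells by at least 1, a 2-fold change, and as lower in the opposite case. In cycling cells 554 genes were higher (5.32% of genes) and 286 were lower (2.75%). Counts of genes in the lists below stand beside these shares. Because the cells were divided on expression, these shares describe the division and test nothing, and spread between single cells adds to them. Counts moved with the setting. Without this pair 413 genes were higher and 643 lower, and with differences averaged within name prefixes 386 were higher and 869 lower. The median difference over all 10406 genes was 0.12. Scaling by TMM moved it to -0.08 and the split to 401 higher and 405 lower, and size factors by the median of ratios moved it to -0.12 and the split to 378 and 431, so the balance of the 2 directions depends on the scaling. Genes called lower had a count in a median of 7 of 9 cycling cells and 10 of 10 non-cycling cells.

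Genes of mitosis held the largest differences, and the lists of mitosis had no gene called lower. For 3 of the 10406 genes (0.0288%) the groups did not overlap at all, and these were PBK, KIF23 and RACGAP1, named here after their values were seen. PBK encodes a mitotic kinase. KIF23 and RACGAP1 encode the subunits of centralspindlin, the complex that sets the plane of cytokinesis. PBK spanned 5.86 to 8.17 in cycling cells (median 6.86) and 0 to 5.17 in non-cycling cells (median 2.17), a difference of means of 4.48. KIF23 spanned 5.52 to 7.38 in cycling cells and 1.23 to 5.47 in non-cycling cells, and RACGAP1 spanned 3.99 to 6.43 in cycling cells and 0.85 to 3.95 in non-cycling cells. The margins between groups were small for KIF23 and RACGAP1, whose highest non-cycling cell almost reached the lowest cycling one.

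The regulators that start and end mitosis followed. Of 26 kept genes of mitotic entry and exit, 21 were higher in cycling cells and none lower, with a median difference of 1.93 against 0.12 over all genes. PLK1 was at 6.78 ± 1.32 in cycling cells and 3.11 ± 1.87 in non-cycling cells (SD, n = 9 and 10), and its ranges of 5.04 to 8.61 and 0.53 to 5.53 overlapped. Summed over cells, PLK1 stood at 176.6 CPM in cycling cells (95% exact Poisson interval 175.2 to 178.1) and 15.5 CPM in non-cycling cells (15.1 to 15.9), and 1 cell gave 41.2% and 37.5% of the reads. The interval takes each read as an independent count, which amplified reads without molecular identifiers are not. It is therefore too narrow, and it leaves out the spread between cells. CCNA2, the cyclin of S and G2 phase, differed by 3.42 and CCNB2, a mitotic cyclin, by 3.27. CDC20, the activator of the anaphase-promoting complex, spanned 6.07 to 9.51 in cycling cells and 1.28 to 7.74 in non-cycling cells, and FOXM1, the factor that activates G2 genes, spanned 2.93 to 6.28 and 0 to 5.35, both chosen after their values were seen. All of these were higher within each of the 5 name prefixes that held both groups.

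Structural genes of the spindle, the kinetochore and the chromosome showed the same. Among 43 spindle motors and microtubule regulators 36 were higher and none lower (median difference 2.32), among 35 kinetochore and checkpoint genes 28 were higher and none lower (median 1.58), and among 19 genes of condensin and cohesin 10 were higher and none lower (median 1.30). BIRC5, a subunit of the chromosomal passenger complex, was at 7.82 ± 1.17 in cycling cells and 4.56 ± 2.37 in non-cycling cells. HMMR and DLGAP5, which act on spindle microtubules, differed by 3.29 and 3.13. SPC25 of the Ndc80 complex spanned 3.06 to 5.30 in cycling cells and 0 to 3.67 in non-cycling cells, and CENPA, the histone of the centromere, 3.10 to 6.46 and 0 to 3.88. NCAPG was at 6.12 ± 0.96 in cycling cells and 2.56 ± 2.23 in non-cycling cells, 3 of which had no count. SHCBP1, a protein of the central spindle that binds RACGAP1, had no count in 3 non-cycling cells either and was at 4.76 or more in each cycling cell.

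**Figure D2:**
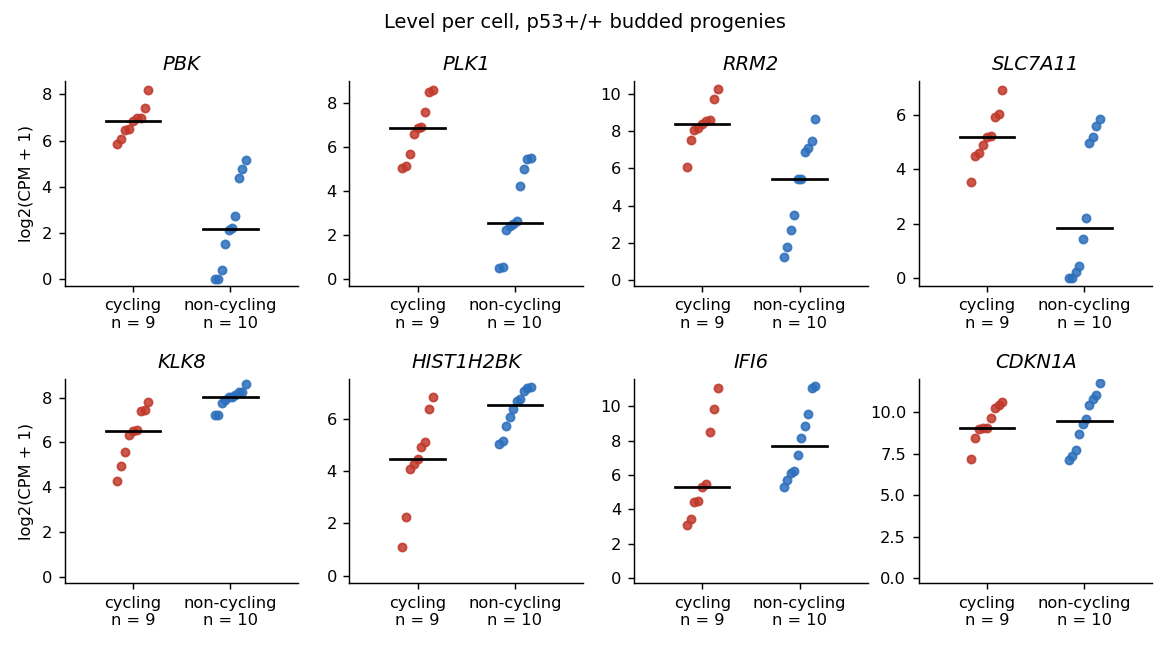
Level of 8 genes in each cell (y axis, log2(CPM + 1)), cycling cells left and non-cycling cells right, with a bar at the median. PBK separates the groups, PLK1 and RRM2 overlap, SLC7A11 splits the non-cycling cells into 4 at 4.96 or more and 6 at 2.21 or less, KLK8, HIST1H2BK and IFI6 lie lower in cycling cells, and CDKN1A overlaps throughout.

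Genes of DNA replication differed as well, but less evenly. Of 58 kept genes of replication licensing and the G1/S transition, 39 were higher and none lower, with a median difference of 1.49. RRM2, a subunit of ribonucleotide reductase, spanned 6.09 to 10.22 in cycling cells and 1.26 to 8.63 in non-cycling cells, a difference of 3.35. TK1, thymidine kinase, spanned 6.58 to 10.26 in cycling cells and 1.23 to 9.79 in non-cycling cells. MCM4 of the replicative helicase, chosen after its values were seen, spanned 2.27 to 8.63 and 1.31 to 7.69 in that order. The groups overlapped for all 3 genes, and for RRM2 the highest non-cycling cell was 8028. By name prefix, the median difference of the list ran from 0.07 to 2.58 across the 5 prefixes, whereas that of mitotic entry and exit ran from 1.36 to 3.02.

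Cell by cell, replication and spindle genes were high or low together, and the cells on either side of the median score departed from their own groups in both. In cycling cells the mean level of the 58 replication genes was 3.33 to 6.39 (median 5.68), and in non-cycling cells 2.59 to 6.80 (median 3.54). The highest of all 19 cells was the non-cycling 8028, at 6.80, whose spindle level of 5.22 lay within the cycling range of 3.31 to 6.72. The lowest of the cycling cells was 1219S4, at 3.33, with a spindle level of 3.31 where the other 8 cycling cells had 5.12 or more. Single genes of 1219S4 went both ways. Its levels of PBK, 6.50, and CENPA, 5.44, lay above every non-cycling cell, and DEPDC1B, 7.06, and CDKN3, 7.73, were the highest of the 19 cells, whereas RRM2, 6.09, was the lowest of the cycling cells. When the score was made of 8 other mitotic genes (CCNB2, CDC20, PLK1, BUB1B, NUSAP1, KIF23, UBE2C and CENPF), 1219S4 and 8028 changed places and the other 17 cells stayed. With that score the median difference of the replication list was 2.17. The 5 cells 1229S3, 1219S3, 80813, 617S4 and 1219S1, with scores of 3.05 or less, were low for both lists, with replication levels of 2.59 to 3.29 and spindle levels of 2.05 to 2.59. The cells 7267, 708S1, 8026 and 80818, with scores of 3.82 to 4.86, lay between, at 3.78 to 5.42 for replication genes and 3.65 to 4.48 for spindle genes.

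**Figure D3:**
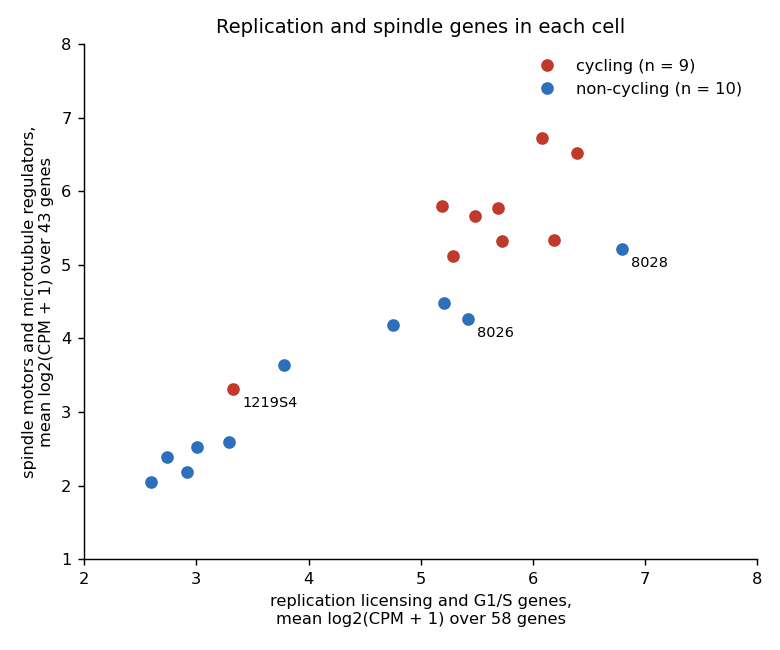
Mean log2(CPM + 1) of 43 spindle genes (y axis) against that of 58 replication and G1/S genes (x axis) in each of the 19 kept cells, cycling and non-cycling. The cells spread along both axes. The cycling cell 1219S4 lies just above the low non-cycling cells on both, and the non-cycling cell 8028 lies furthest to the right, at 6.80.

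Repair genes tied to replication and chromatin genes of dividing cells went the same way. Among 30 genes of homologous recombination and the Fanconi pathway 11 were higher and none lower, with a median difference of 0.80, and the median lay above 0 in 3 of 5 prefixes. FANCD2, which marks stalled forks, spanned 3.16 to 6.68 in cycling cells and 0 to 4.76 in non-cycling cells. CHEK1, the kinase of the replication checkpoint, differed by 2.44. Among 21 chromatin genes 13 were higher and none lower (median 1.31). HMGB2, a DNA-bending protein of proliferating cells, spanned 7.29 to 9.44 in cycling cells and 3.13 to 8.32 in non-cycling cells. EZH2, the methyltransferase of Polycomb, was at 5.86 ± 1.00 in cycling cells and 3.58 ± 2.12 in non-cycling cells.

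Promoters of the mitosis and replication lists differed in their motifs, although both lists were higher in cycling cells. That contrast belongs to the lists and is not a result of dividing these cells. Of the 554 genes called higher, 432 matched a RefSeq promoter, and 25.9% of these held a CHR match, against 10.7% of 8031 promoters of all kept genes and 16.6% of all 27305 promoters in the table. For genes called lower the share was 7.5% of 200. In 39 promoters of spindle genes the share was 74.4%, and 64.1% held the match within 50 bases of the start. In 51 promoters of replication and G1/S genes the share was 7.84%. The E2F letters showed the reverse, in 10.3% of spindle promoters and 49.0% of replication promoters, against 5.90% of all kept genes and 3.33% of all promoters. CCAAT, the box bound by NF-Y, was in 71.8% of spindle and 58.8% of replication promoters, against 37.1% of all kept genes and 35.7% of all promoters. Letters in a sequence are not a bound site, and TTCGAA reads the same on both strands.

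**Figure D4:**
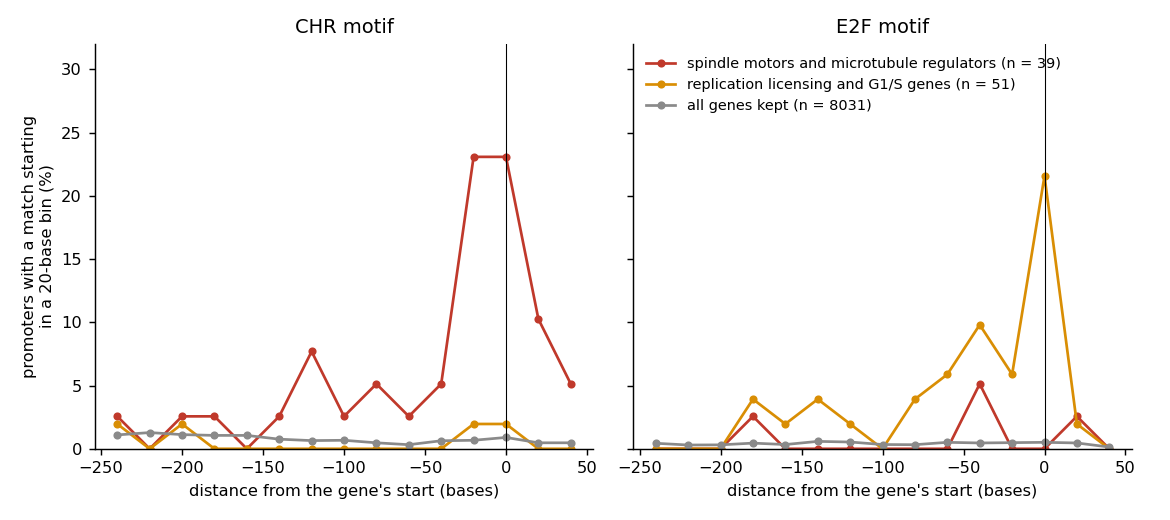
Share of promoters (y axis, %) in which a CHR match (left) or an E2F match (right) starts in a given 20-base bin of distance from the start of the gene (x axis, bases), for spindle genes (n = 39), replication and G1/S genes (n = 51) and all kept genes (n = 8031). CHR matches of spindle genes gather in the bin at the start and the one before it (23.1% each), and E2F matches of replication genes are most frequent in the bin at the start (21.6%).

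Histone genes ran against the other genes of the cycle. Of 7 kept clustered histone genes, 4 were lower in cycling cells and 1 was higher, with a median difference of -1.06. HIST1H2BK spanned 1.08 to 6.84 in cycling cells (median 4.47) and 5.05 to 7.22 in non-cycling cells (median 6.53), a difference of -1.95. HIST1H1C, a linker histone gene, was lower too, spanning 0 to 6.77 in cycling cells and 2.77 to 7.56 in non-cycling cells, as were HIST1H2AC and HIST1H2BD, the remaining pair of the 4. The gene that was higher, HIST1H3B, was near the lower end of detection, with a count in 7 of 9 cycling and 6 of 10 non-cycling cells. HIST2H2AA3 and HIST2H2AA4, near-identical copies that can share reads and are uncertain as single genes, differed by -1.74 and -1.71. Most mRNA of replication-dependent histones carries no poly(A) tail, so a primer on the tail does not reach it. With no filter beyond a count in 3 cells, which lets in more histone genes of low level, the median difference of the list was -0.05.

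The genes called lower included 2 neighbouring kallikrein genes, while lists of epithelial and secreted proteins held few calls. KLK8 and KLK7, which lie close together at chr19:50996008-51001604 and chr19:50976468-50984064 on GRCh38, encode secreted serine proteases of the kallikrein family. KLK8 spanned 4.29 to 7.80 in cycling cells (median 6.52) and 7.24 to 8.63 in non-cycling cells (median 8.03), and it was lower within all 5 prefixes. KLK7 was at 5.58 ± 1.82 in cycling cells and 7.33 ± 1.95 in non-cycling cells, and the 8 other score genes turned its difference of -1.74 to 0.046. KLK8 kept a difference of -2.13 to -1.29 under every alternative run. S100A11, a calcium-binding protein, spanned 8.04 to 9.45 in cycling cells and 8.37 to 11.12 in non-cycling cells, and its difference of -1.03 was -0.76 without the cells 80813 and 80818. IGFBP6, a secreted binder of insulin-like growth factors, differed by -1.26. TIMP1, an inhibitor of metalloproteinases, missed the size rule by its mean, at 7.68 ± 0.65 in cycling cells and 8.52 ± 0.38 in non-cycling cells. KRT19 missed it by mean and median, at 10.81 ± 0.41 in cycling cells and 11.63 ± 0.64 in non-cycling cells. Of 9 keratin genes 1 was lower, KRT23 with -1.85, and of 26 junction genes 1 was lower, COL17A1 with -1.66. The median difference was -0.49 for keratins and -0.05 for junction genes, and -0.63 for junction genes without the cells 80813 and 80818.

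The other genes named by the rule as lower differed in how many cells had reads. SYS1-DBNDD2, a readthrough entry that shares its exons with its neighbours and is uncertain, had a count in 2 of 9 cycling and 8 of 10 non-cycling cells. PLSCR3, a scramblase gene, spanned 0 to 5.80 in cycling cells (median 0.76) and 0 to 6.20 in non-cycling cells (median 5.74). PORCN, which adds the lipid to WNT proteins, and SLC35C1, the GDP-fucose carrier of the Golgi, differed by -1.94 and -1.73. FNTA, the shared subunit of protein prenyltransferases, had reads in all 19 cells and spanned 2.27 to 6.17 in cycling cells and 4.28 to 7.77 in non-cycling cells. MTERF4, a factor of mitochondrial ribosome assembly, differed by -1.58. The cycling cell with a score of 7.62 had the fewest genes with a count among kept cells, 10268. It had no count for SYS1-DBNDD2, PORCN, SLC35C1 or MTERF4, but PLSCR3 stood at 4.70 and FNTA at 6.17. Nor did it have a count for PARP14, HIST1H1C, HIST1H2AC, RBL2, CDKN2B, KRT23 or COL17A1, each called lower. It was left out only together with other cells, so how far its missing counts feed the lower calls was not tested.

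Interferon-stimulated genes were divided. Of 35 kept genes 6 were lower (17.1%, against 2.75% of all genes) and 1 was higher (2.86%, against 5.32%). The median difference was -0.09, near the 0.12 of all genes. Without the cells 80813 and 80818 it was -0.65. The 6 were IFI6, PARP14, ISG15, IFITM1, ISG20 and IFITM3, the last 3 named outside the rule for named genes. All 6 held an ISRE match in the promoter, against 71.4% of 28 promoters of the list, 6.06% of all kept genes and 8.29% of all promoters. IFI6 spanned 3.10 to 11.08 in cycling cells (median 5.29) and 5.32 to 11.19 in non-cycling cells (median 7.66), and 1 cell gave 77.8% of its summed counts in cycling cells. ISG15, a ubiquitin-like modifier, spanned 7.39 to 13.50 in cycling cells and 9.37 to 12.20 in non-cycling cells. The highest single level of ISG15 was thus in a cycling cell, and without the cells 80813 and 80818 its median difference of -0.98 no longer met the rule. Within name prefixes, IFI6 and ISG15 were each lower in 3 of 5, with mean differences of -1.07 ± 2.18 and -0.86 ± 2.11 (SD). IFIT1, which binds viral RNA, was called higher, with 0.22 to 9.78 in cycling cells and 0 to 8.71 in non-cycling cells, and its sign turned with another floor or score. Its difference of 1.17 was 0.55 without the cells 80813 and 80818. Of 12 genes of MHC class I presentation none met the rule in either direction.

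Few genes of p53 and of arrest met the size rule, and several of their values depended on single cells or settings. CDKN1A, the p21 gene, spanned 7.18 to 10.65 in cycling cells (median 9.08) and 7.14 to 11.80 in non-cycling cells (median 9.47), a difference of -0.08. In [N] cells of the line it spanned 5.19 to 8.00 and in [R] cells 7.41 to 11.28, so that 8 of 9 cycling progenies lay above every [N] cell. Without the cells 80813 and 80818 the difference of CDKN1A was -0.62, with an SD of 1.09 in cycling cells and 1.34 in the remaining non-cycling cells. It averaged -0.79 within name prefixes, with 3 of 5 of one sign, and was -1.22 between the 6 highest and the 6 lowest scores, and 0.18 without 707G3. The name of 707G3, a cycling cell, holds a G, which is otherwise found only in names of cells labelled [B]. Its label is [S], and it was kept as labelled. MDM2 was at 6.55 ± 0.98 in cycling cells and 5.50 ± 1.94 in non-cycling cells, a difference of 1.05, and of 0.24 without the pair. Of 38 p53 targets 1 was higher, DDB2 of nucleotide excision repair, with 1.26, and none was lower. Without the pair DDB2 differed by 0.99 and no longer met the rule. The median difference of the list was 0.15, and -0.41 without the pair, so its sign rested on those cells. It was -0.02 with TMM scaling.

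Other regulators of the G1 phase differed gene by gene. CDKN2B, which encodes the CDK4 inhibitor p15, had a count in 5 of 9 cycling and 9 of 10 non-cycling cells and differed by -1.12. CDKN3, a phosphatase listed with the CDK inhibitors and itself expressed in mitosis, spanned 6.09 to 7.73 in cycling cells and 3.16 to 6.52 in non-cycling cells. Of 18 genes of D cyclins, pocket proteins and DREAM 2 were higher (11.1%, against 5.32% of all genes) and 1 lower (5.56%, against 2.75%). The pocket protein genes went opposite ways, RBL1 (p107) with 1.44, no longer called without the cells 80813 and 80818, and RBL2 (p130), the pocket protein of DREAM in resting cells, with -1.60. RBL2 spanned 0 to 4.32 in cycling cells (median 1.06) and 0.25 to 5.70 in non-cycling cells (median 4.12). CCND1, the D-type cyclin, was at 9.38 ± 0.41 and 9.66 ± 1.03 in cycling and non-cycling cells, and MYC at 8.27 ± 1.08 and 7.87 ± 2.01. CCND1 differed by -0.28 over all cells but by -1.0 ± 0.38 (SD) within the 5 name prefixes, with 1 sign in all 5, and MYC by 0.39 and -0.14.

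The genes that the study tied to budding lay somewhat lower in cycling cells but missed the size rule. CST3, which encodes the protease inhibitor cystatin C, spanned 6.12 to 9.09 in cycling cells (median 8.45) and 6.69 to 10.25 in non-cycling cells (median 9.46), a difference of -0.81. SNCG, the gene of gamma-synuclein, spanned 2.85 to 6.34 in cycling cells (median 5.50) and 5.28 to 7.20 in non-cycling cells (median 6.10), a difference of -0.79 with the same sign in all 5 prefixes. In [B] cells CST3 spanned 6.93 to 11.42 (median 9.83) and in [N] cells 5.87 to 7.39 (median 6.67). The median of CST3 in cycling progenies lay between those of [N] and [B] cells. SNCG did not follow this, with medians of 5.96 in [B] cells and 5.81 in [N] cells, both above that of cycling progenies. CD44 spanned 7.38 to 10.01 in cycling cells and 5.49 to 10.90 in non-cycling cells, a difference of -0.36. Without the cells 80813 and 80818 the non-cycling cells began at 9.24, and the difference of -1.16 met the size rule as lower.

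Stress response genes held a few calls outside the cycle. Of 24 genes of the unfolded protein and integrated stress response 4 were higher (16.7%, against 5.32% of all genes) and none lower. They were PHGDH, ASNS, CHAC1 and TRIB3 (median difference of the list 0.68, and 0.33 without the cells 80813 and 80818). ASNS, asparagine synthetase, spanned 5.60 to 9.07 in cycling cells (median 7.08) and 3.60 to 6.12 in non-cycling cells (median 5.34). PHGDH, the first enzyme of serine synthesis, was at 5.46 ± 1.55 in cycling cells and 3.44 ± 1.85 in non-cycling cells, and both genes differed in this direction within all 5 prefixes. TRIB3, a pseudokinase induced by ATF4, differed by 1.59. SLC7A11, the cystine carrier, spanned 3.52 to 6.92 in cycling cells (median 5.21) and 0 to 5.86 in non-cycling cells (median 1.82). The cell 1219S4 had the highest level of this list, and without it ASNS differed by 1.61, SLC7A11 by 2.40 and the list median was 0.28. With the 8 other score genes, which put 1219S4 among the non-cycling cells, the differences were 1.07 for ASNS, 1.16 for SLC7A11 and 0.04 for the list.

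Large housekeeping lists held few calls. None of 78 ribosomal protein genes, 55 nuclear genes of the respiratory chain, 32 proteasome genes, 31 lysosomal genes, 29 ESCRT genes, 28 genes of cholesterol and fatty acid synthesis and 24 chaperone genes met the size rule in either direction, and their median differences ran from -0.23 for ribosomal proteins to 0.57 for chaperones. Without the cells 80813 and 80818 the ribosomal list stood at 0.12, lysosomal genes at -0.55 and chaperones at 0.29. Ribosome biogenesis had 1 of 39 genes higher and a median of 0.44, with 36 of 39 genes above 0. Of 26 AP-1 and immediate early genes 3 were higher (11.5%, against 5.32% of all genes), FOS, EGR1 and CCN2, and FOS and EGR1 turned sign with the 8 other score genes. Without the cells 80813 and 80818 none of the 3 met the rule, with 0.82 for FOS, 0.99 for CCN2 and a median difference of 0.81 for EGR1, and the list median was -0.08 in place of 0.51. Of 18 secreted senescence factors 1 was lower, of 17 regenerative markers 2 were higher and 1 lower, of 15 BCL2 family genes 1 was higher (MCL1 with 1.32, and 0.65 without the pair), of 30 genes of glycolysis and hypoxia 1 was higher (DDIT4) and 1 lower (PFKFB4), and of 7 crypt-base stem cell markers 2 were higher (EPHB2 and CDCA7). Without the pair DDIT4 and EPHB2 no longer met the rule, nor did NAT10 of ribosome biogenesis, with 0.83, and EMP1 of the regenerative markers, with 0.56. None of 4 metallothionein genes met the rule. Over all genes 5.32% were higher and 2.75% lower, so 1 or 2 calls in a list are not read as a result about it.

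**Figure D5:**
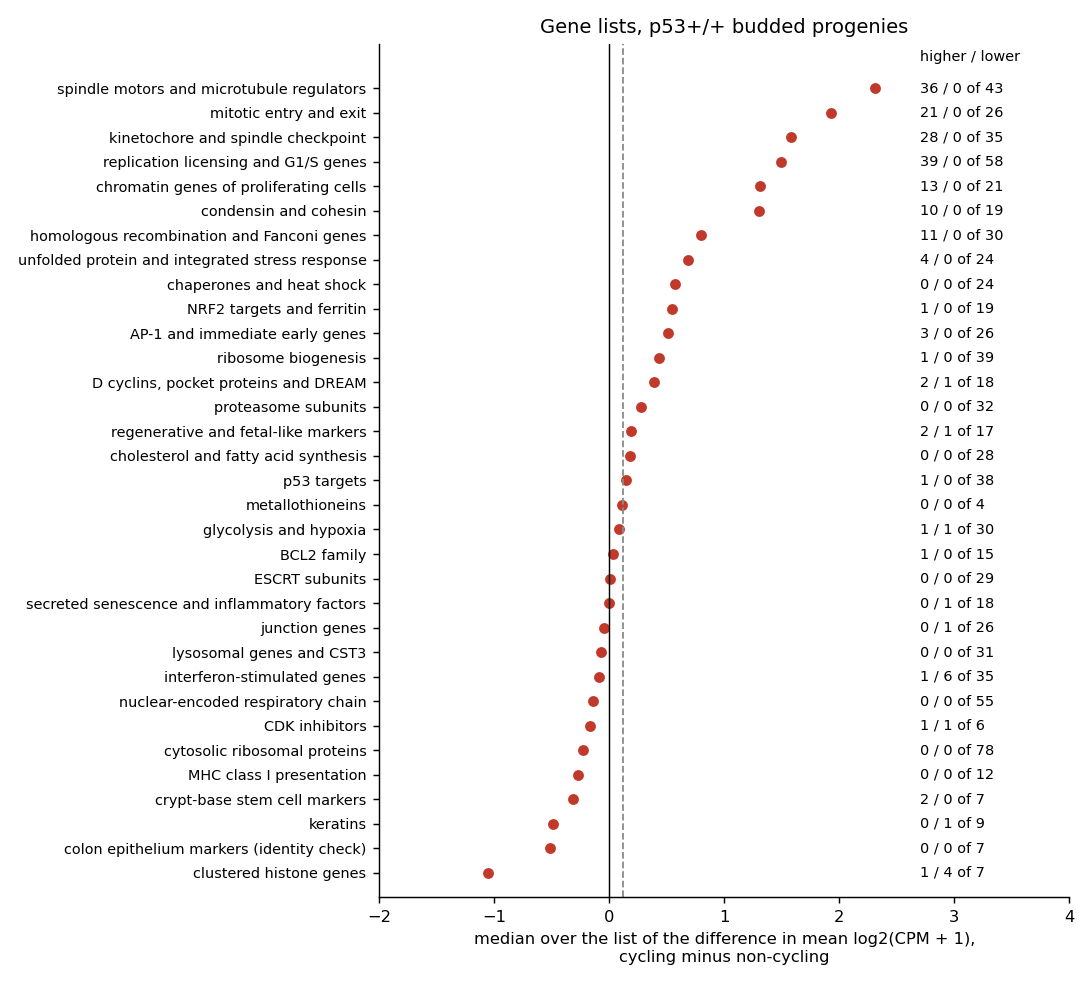
Median over each gene list of the difference in mean log2(CPM + 1), cycling minus non-cycling (x axis), with the number of genes higher and lower by the size rule of those kept. The dashed line marks the median of all 10406 genes, 0.12. Lists of mitosis, replication, proliferation chromatin and recombination lie at 0.80 or more and clustered histones at -1.06.

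The same division was made in cells that the rule had not used. It used the same 8 score genes, so genes that vary with them are higher there by construction. The shared calls below are a description and no independent test. The 26 kept p53+/+ [B] cells, divided at the median of their own score into 13 and 13, had scores of 4.20 to 7.82 and 1.5 to 3.74. In them 11.2% of 10342 genes were higher and 0.222% lower by the size rule in the high-scoring cells. Of the genes called higher in cycling progenies, 505 were kept there, and 487 (96.4%) lay above 0, against 75.7% of all genes kept in both. In budding cells 254 of the 505 (50.3%) met the size rule, against 11.4% of all genes. Of the genes called lower, 267 were kept, and 6 (2.25%) met the rule as lower, against 0.209% of all genes kept in both, while 63.3% lay above 0, against 75.7% of all genes. The genes called higher thus mostly lay above 0 in budding cells, and those called lower had a median of 0.23 there, below the 0.46 of all genes but above 0. HIST1H2BK, KLK8, HIST1H1C and IFI6 kept their sign, with differences of -0.78, -0.64, -1.10 and -0.78, whereas PARP14 and FNTA did not, with 0.50 and 0.43. The spindle list had a median of 2.09, replication 1.95 and mitotic entry and exit 1.61 in budding cells.

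In the p53−/− progenies the score left little to divide. Their 8 kept cells fell into 4 with scores of 7.45 to 8.28 and 4 with 6.75 to 7.39, a difference of means of 0.587, against 3.18 in the p53+/+ progenies. With 4 cells against 4, 10.4% of 10524 genes met the size rule as higher and 13.7% as lower, larger shares than in the p53+/+ progenies, although the scores differed less. Meeting the size rule is therefore no mark of a cell cycle gene. Of 530 genes called higher in p53+/+ cycling progenies and kept here, 290 (54.7%) lay above 0, against 49.8% of all genes, and their median difference was 0.10. The spindle list had a median of 0.64 and the replication list 0.03. A difference between the lines was not tested, since each is a single sample.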

How the data were processed

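RNA of single HCT116 cells was amplified at full length (Vazyme N712, no molecular identifiers) and sequenced, with 1 library per cell. By the study's methods, reads were trimmed with fastp, aligned to GRCh38 with HISAT2 v2.0 and assembled with StringTie; the tool that made the counts is not given in the sources used here. The authors deposited raw whole-number counts for 43386 entries per cell, and 3837 entry names end in an added number and were kept apart. The labels name a NextSeq 500 and the methods another instrument.

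CPM was the count scaled to a cell's total. Cells with at least 10000 genes with a count were kept, scored and divided at the median. Differences were taken between means of log2(CPM + 1), so changes of low genes are understated. Genes needed a count in at least 10 of the kept cells and a mean of 5 CPM. No test was run, because the cells are 1 sample. Genes were named if they were score genes, up to 12 per direction with the largest difference at 20 CPM or more with one sign in at least 75% of the 5 prefixes holding both groups, up to 4 of each list, or CDKN1A, MDM2, CCND1, MYC, CST3, SNCG and CD44. KIF23, RACGAP1, CDC20, FOXM1, MCM4, HIST1H2BD, IFITM1, ISG20, IFITM3, DTL and GINS2 fell outside this rule and were chosen after their values were seen. The members, lists and rules were chosen with earlier results of these data known. The mitochondrial mRNA list had no entry under its names. The calculation was tested on simulated data. The pass mark was set only for counts with no spread between cells, unlike these cells. It does not show how often spread alone meets the size rule. Alternatives were other scalings (TMM of edgeR 4.0.16, median of ratios), pseudocount, filters, depth, cell floors, scores, name prefixes and single cells. Python 3.11.15, numpy 2.4.6, pandas 2.3.3, scipy 1.17.1, matplotlib 3.10.9 and R 4.3.3 were used.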

Additional observations from a re-analysis of the deposited data

Results flagged for a closer look

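Levels of 33 gene lists and 7 single genes were looked at in cycling and in non-cycling cells, 80 groups of 9 or 10 cells in all, for a cell whose gap to its neighbour was large against the range of its group. In 10 of these groups a cell stood apart. Chance gives about 1 in 20 for independent groups, but these groups reuse the same cells, so the count cannot be set against that rate.

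Among cycling cells, 1219S4 stood apart 4 times. Its level of spindle genes was 3.31 and the next cell had 5.12, its level of replication and G1/S genes was 3.33 and the next 5.19, and its level of homologous recombination and Fanconi genes was 2.03 and the next 3.25. Its level of unfolded protein and integrated stress response genes was the highest, at 8.07, and the next had 6.07. The cycling cell with the second highest score, 7.62, was lowest for both genes tied to budding, with CST3 at 6.12 (next 7.75) and SNCG at 2.85 (next 5.29).

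Among non-cycling cells, 80813 stood apart 3 times as the lowest, with ribosome biogenesis at 4.66 (next 5.76), unfolded protein and integrated stress response genes at 2.85 (next 4.62) and chaperones at 6.32 (next 7.50). The cell 8026 was lowest for clustered histone genes, at 3.04 (next 4.22).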

How the results depend on the processing

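No paired analysis was possible because the numbers in the labels name single cells, both groups come from 1 sample and no label links a cycling cell to a non-cycling one. Differences averaged within the 5 name prefixes that held both groups, which the labels do not explain, gave 386 higher and 869 lower. Counts of genes by the size rule were 554 higher and 286 lower. Higher counts changed by over 1.5 times to 176 with a pseudocount of 10, 290 with the CPM limit at 20, 1165 and 861 with a floor of 8000 or 12000 genes, 1006 between the 6 highest and 6 lowest scores, 899 with the 8 other score genes, 939 without the name prefix shared by 7267, 7269 and 72613, 880 without that of 8026, 8027 and 8028, and 841 without the 3 cells with over 16000 genes, an alternative chosen after seeing the data. Lower counts changed so to 431 with size factors by the median of ratios, 19 with a pseudocount of 10, 435 with no filter beyond 3 cells, 70 with 20 CPM, 141 and 162 with the floors, 915 between the 6 highest and 6 lowest scores, 539 without prefix 1229 and 643 without 80813 and 80818. The replication list had a median of 2.98 between the 6 highest and 6 lowest scores. IFIT1 reversed to -0.97 with a floor of 12000 genes and to -0.90 with the 8 other score genes, which also turned KLK7 to 0.046, EGR1 to -0.18 and FOS to -0.38. FOS was at -0.17 between the 6 highest and 6 lowest scores. The causes were not tested. Of 74 named genes that met the size rule, 70 kept their sign in all 25 alternatives. Most were chosen for large differences and the alternatives reuse the same cells, so this is no test of stability. Over all genes, the share of calls kept varied more. It ran from 31.8% of higher and 6.64% of lower calls with a pseudocount of 10 to 100% of both with score genes scaled to unit SD. The lists of mitotic entry and exit, spindle and replication genes stayed at 1.12 to 2.93, 1.25 to 3.46 and 0.87 to 2.98. Leaving out the cell at the median gave 720 higher and 249 lower, leaving out 1219S4 gave 596 and 349, and thinning to the lowest total gave 540 and 275. The fold of single genes is limited by 9 and 10 cells, without replicate cultures.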
